A study of Mus musculus with 9 samples.

Results

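The TGF-beta and BMP signalling genes examined here are 10 genes taken by name, of 49315 gene IDs in the count table. They are the ligands Tgfb1, Tgfb2, Tgfb3 and Bmp4, the receptors Tgfbr1, Tgfbr2, Bmpr1a and Bmpr1b, and the target genes Id1 and Id3. Their levels were measured by RNA sequencing in 9 libraries, 3 of each of 3 sorted cell populations. SB28 is a mouse glioblastoma cell line that here carried GFP. Its cells had been grown for 2 days with primary neonatal astrocytes from C57BL6 mito::mKate2 mice, in which a transgene driven by the broadly active CAG promoter puts the red fluorescent protein mKate2 into mitochondria. The astrocytes, the mKate2- SB28 cells and the mKate2+ SB28 cells were sorted from these co-cultures, and mKate2+ tumor cells are those that held astrocyte mitochondria. All 3 populations shared the medium, which the labels give as holding 2% FBS, 5% N2 supplement and 20 ng/ml EGF and FGF, and received no other treatment. The study's methods give other shares of serum and N2 for its co-culture medium. No library was made from cells cultured alone, and SB28 is a single cell line. The labels give the 3 libraries of a population as biological replicates, and the study describes them as distinct co-cultures. The sort gates in the labels give the CellTrace Violet dye to the tumor cells, whereas the study's methods stain the astrocytes, so each library was taken by its title.

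Ligands of the TGF-beta family are secreted dimers, and TGF-beta itself is kept latent in the matrix until integrins or proteases free it. A ligand joins type II and type I receptor kinases, and the type I receptor phosphorylates SMAD proteins that enter the nucleus with Smad4. TGF-beta and activin receptors act mainly through Smad2 and Smad3, and BMP receptors through Smad1, Smad5 and Smad9. The Id genes, which encode inhibitors of bHLH transcription factors, are the classical BMP targets, and BMP signals promote the astrocyte fate of neural precursors. In glioblastoma, TGF-beta is best known for mesenchymal change and immune suppression, and BMP4 for driving differentiation of stem-like cells.

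The libraries held between 24454561 counts (astrocyte replicate 1) and 39287841 counts (mKate2+ replicate 2). Levels are given as CPM, counts scaled to the total of the library, and levels of different genes are compared only per kb of exonic length. In bulk libraries, fewer expressing cells and less RNA per cell cannot be told apart. The labelled cell types were checked against 15 astrocyte markers. Their summed level was 1132, 1121 and 1935 CPM in the astrocyte libraries and 386 to 467 CPM in the SB28 libraries, and 9 of the 15 were at least 10 times higher in astrocytes on average. Slc1a3, a glutamate transporter and 1 of the 9, stood at 173, 177 and 236 CPM in astrocytes and at no more than 2.38 CPM in any SB28 library. The classical marker Gfap reached only 3.42 to 19.4 CPM in astrocytes, S100b at most 2.16 CPM, and Gjb6 was at 0 in all 9 libraries. Gja1, the connexin 43 gene, was instead higher in SB28 cells, at 168, 212 and 216 CPM in astrocytes and 241 to 284 CPM in SB28 libraries. It made up most of the SB28 sum, with a mean of 270 CPM there.

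Markers of other cell types also differed between the populations. The 8 oligodendrocyte lineage markers summed to 847, 444 and 508 CPM in astrocytes and 17.1 to 27.0 CPM in SB28 libraries. Olig1 was the most abundant of them, at a mean of 362 CPM in astrocytes, followed by Olig2, while Sox10 was at 0, 0.06 and 0 CPM there. Of 10 microglia and macrophage markers, 8 stayed below 1 CPM in every library, and the most abundant, Tmem119, averaged 31.5 CPM in astrocytes and 52.8 CPM in SB28 cells. The 8 fibroblast markers summed to 1213 to 1578 CPM in astrocytes and 662 to 1002 CPM in SB28 cells, led by Col1a2, with Dcn at most 2.45 CPM and Lum at most 0.51 CPM. Of that list, Col3a1 (13.1 to 45.9 CPM in astrocytes, 53.5 to 116.7 CPM in SB28 cells) and Tbx18 (3.07 to 6.54 and 25.7 to 36.5 CPM) were called higher in both tumor populations. The 6 endothelial markers summed to 7.57, 14.4 and 199 CPM in astrocytes and to 48.5 to 61.2 CPM in SB28 cells, led by Flt1, and Cldn5 did not pass 0.03 CPM. The 6 neuron markers summed to 53.4, 98.8 and 88.5 CPM in astrocytes, led by Map2, and to 38.6 to 48.8 CPM in SB28 cells, with Rbfox3 at 0 in all libraries. Among these, Tubb3 ran the other way, at 9.45 to 13.2 CPM in astrocytes and 18.2 to 24.8 CPM in SB28 cells. The part of these other cell types in the differences below was not tested.

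2 libraries stood somewhat apart within their groups. Astrocyte replicate 3 had the highest level of 12 of the 15 astrocyte markers among astrocytes, with Aldoc at 362 CPM against 55.6 and 33.8 CPM, and it also held Flt1 at 192 CPM. Its root mean square distance to the other astrocytes, in log2(CPM + 0.5) over 13450 genes, was 0.66, and those of astrocyte replicates 1 and 2 were 0.60 and 0.54. Among SB28 libraries, mKate2+ replicate 2 lay 0.44 from its own group, and the other 5 lay 0.27 to 0.34 from theirs. Values without these libraries are given wherever they change a call.

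The ligand Tgfb2 showed the widest difference of the 10 genes, and its promoter is set beside that of Tgfb1, a ligand of the same family whose level changed much less. Both are the 250 bases before the RefSeq transcription start on GRCm38.p6, and in both the start is also the first base of the GENCODE gene. The Tgfb1 window is chr7:25686752-25687001 on the plus strand and the Tgfb2 window is chr1:186705990-186706239 on the minus strand. Capitals mark the SMAD-binding letters CAGAC and the TATA box letters TATAAA, each searched on both strands.
Tgfb1: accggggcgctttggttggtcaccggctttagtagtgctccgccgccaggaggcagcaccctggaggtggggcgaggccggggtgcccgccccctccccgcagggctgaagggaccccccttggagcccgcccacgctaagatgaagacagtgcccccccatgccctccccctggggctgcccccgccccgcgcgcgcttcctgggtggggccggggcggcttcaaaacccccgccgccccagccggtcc
Tgfb2: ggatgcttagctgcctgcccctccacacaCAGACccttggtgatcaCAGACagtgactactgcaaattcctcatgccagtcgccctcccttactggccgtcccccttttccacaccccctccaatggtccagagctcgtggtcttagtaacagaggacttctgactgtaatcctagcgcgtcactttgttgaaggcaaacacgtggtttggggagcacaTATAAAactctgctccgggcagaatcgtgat
The Tgfb2 window held CAGAC 221 and 204 bases before the start and TATAAA 31 bases before it, and 53.6% of its bases were G or C. The Tgfb1 window held neither, and 75.2% of its bases were G or C. Of 32851 such windows in the RefSeq table, 42.2% held CAGAC and 12.4% held TATAAA. A GC-rich BMP-response motif, GGCGCC, was found in 9.59% of windows and in neither of these. Windows were found for 8 of the 10 genes, 11 in all since Tgfbr1 and Bmpr1b have several starts, some inside the gene. At least 1 window held CAGAC for 5 genes, TATAAA for 2 and GGCGCC for 2, counts per gene that cannot be set against the shares per window. Such matches describe letters and are not evidence of binding.

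On GRCm38, the ligand genes lie at chr7:25687002-25705077 (Tgfb1, plus strand), chr1:186622792-186705989 (Tgfb2, minus), chr12:86056745-86079041 (Tgfb3, minus) and chr14:46383520-46390669 (Bmp4, minus). The receptor genes lie at chr4:47353222-47414931 (Tgfbr1, plus), chr9:116084293-116175360 (Tgfbr2, minus), chr14:34410734-34503341 (Bmpr1a, minus) and chr3:141837136-142169425 (Bmpr1b, minus). The target genes lie at chr2:152736251-152737410 (Id1, plus) and chr4:136143497-136145755 (Id3, plus).

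Tumor cells were compared with the astrocytes of the same cultures to ask how the pathway differs between the donor and the recipient cells. The tests were edgeR's quasi-likelihood tests over all genes with Benjamini-Hochberg adjustment. To be called, a gene needed an adjusted P value under 0.05 together with a log2 fold change beyond 1 in either direction. Of the 10 genes, 9 passed the filter on low counts. In mKate2- SB28 cells 7 of the 9 were called lower than in astrocytes and 0 higher, where 22.4% of all 13356 genes tested were called lower and 11.5% higher. In mKate2+ SB28 cells 6 of the 9 were called lower and 0 higher, where 22.8% of 13342 genes were called lower and 12.2% higher. The median log2 fold change of the 9 was -1.08 in mKate2- and -1.12 in mKate2+ cells, and that of all genes tested was -0.04 and -0.02. By the adjusted P value alone, 8 of the 9 differed in each comparison, where 63.1% and 60.1% of all genes did. Both comparisons use the same 3 astrocyte libraries, so they are not independent of each other.

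**Figure D1:**
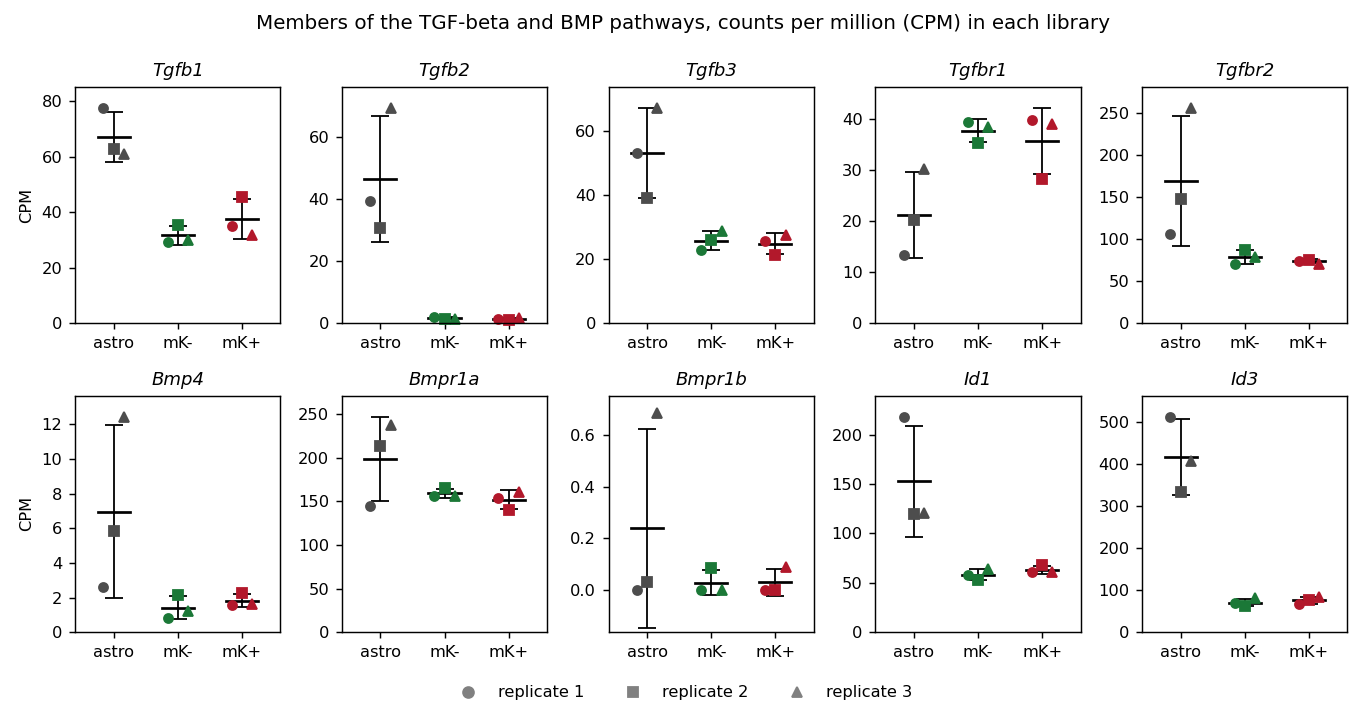
Level of each of the 10 genes in CPM (vertical axis, with its own scale per gene) in astrocytes (astro), mKate2- SB28 cells (mK-) and mKate2+ SB28 cells (mK+). Points are libraries, the long bar is the mean of 3 and the error bar its SD. The SB28 libraries of Tgfb2 all lie at or below 2.06 CPM, against 30.6 CPM or more in astrocytes.

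Tgfb2, which encodes the TGF-beta isoform with a weaker affinity for Tgfbr2 and a need for a co-receptor, was at 39.6, 30.6 and 69.4 CPM in the astrocyte libraries. It was at 2.06, 1.42 and 1.58 CPM in mKate2- cells and 1.30, 1.25 and 1.64 CPM in mKate2+ cells. All SB28 libraries thus lay far below all astrocyte libraries, on 47 to 56 counts each, and the mKate2- and mKate2+ values overlapped. Against astrocytes its log2 fold change was -4.77 ± 0.35 (SE, n = 3 libraries per group) in mKate2- cells, which is 27.4-fold lower (edgeR, adjusted p = 2.92e-05), and -4.98 ± 0.35 in mKate2+ cells, which is 31.6-fold lower (adjusted p = 3.41e-05).

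Tgfb1, the isoform most often linked to immune suppression and matrix production, was at 77.4, 62.6 and 61.0 CPM in astrocytes. It was at 29.4, 35.5 and 30.1 CPM in mKate2- cells and 35.2, 45.6 and 31.8 CPM in mKate2+ cells. No SB28 library reached the lowest astrocyte library, as was so for 37.3% of genes tested in mKate2- and 37.7% in mKate2+ cells, and mKate2+ replicate 2 was the highest of the tumor libraries. The log2 fold change was -1.07 ± 0.15 in mKate2- cells (adjusted p = 0.000533) and -0.76 ± 0.20 in mKate2+ cells (adjusted p = 0.0117). The second passed the P value threshold but not the fold threshold, and this difference in calls is no test of a difference between the tumor populations. Without astrocyte replicate 1 the first also fell under the fold threshold, at -0.94.

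Tgfb3, the third isoform, was at 53.2, 39.1 and 67.1 CPM in astrocytes, at 22.9, 25.9 and 28.9 CPM in mKate2- cells and at 25.7, 21.4 and 27.7 CPM in mKate2+ cells. The groups of tumor cells overlapped each other and lay below every astrocyte library. Both log2 fold changes were -1.02, with SE of 0.20 and 0.21 (adjusted p = 0.00321 and 0.00416), so close to the threshold that it was not called without astrocyte replicate 3 (-0.83 and -0.85), mKate2- replicate 1 (-0.94) or mKate2+ replicate 2 (-0.95), nor in either population with the replicate block or with no filter on low counts (-0.96 in both). Tgfb3 overlaps Ttll5 on the opposite strand, which ran at 26.3 to 44.9 CPM. Whether the counting used strand is not given in the sources used here, so part of the Tgfb3 reads could belong to Ttll5.

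Set per kb of exonic length, the mix of the 3 TGF-beta ligands differed mostly through Tgfb2. Its share of their summed CPM per kb was 18.1%, 18.1% and 27.3% in the astrocyte libraries. In mKate2- cells it was 2.75%, 1.64% and 1.84%, and in mKate2+ cells 1.52%, 1.38% and 1.91%. Tgfb3 held 42.0% ± 2.89 of the sum in astrocytes, 53.7% ± 3.53 in mKate2- cells and 49.1% ± 7.65 in mKate2+ cells (SD, n = 3 each), and Tgfb1 held 36.8% ± 8.09, 44.2% ± 3.45 and 49.3% ± 7.89. The Tgfb2 share of each tumor population did not overlap that of astrocytes (exact two-sided permutation test, p = 0.1, the smallest that 3 against 3 libraries can give, adjusted p = 0.3 over 12 share comparisons). Between mKate2+ and mKate2- cells, the shares of Tgfb1, Tgfb2 and Tgfb3 differed by 5.12, -0.47 and -4.65 percentage points (exact permutation test, p = 0.4, 0.3 and 0.5). With single libraries left out, these differences ran from 0.76 to 8.44, from -0.69 to -0.14 and from -7.81 to -0.40 percentage points.

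**Figure D2:**
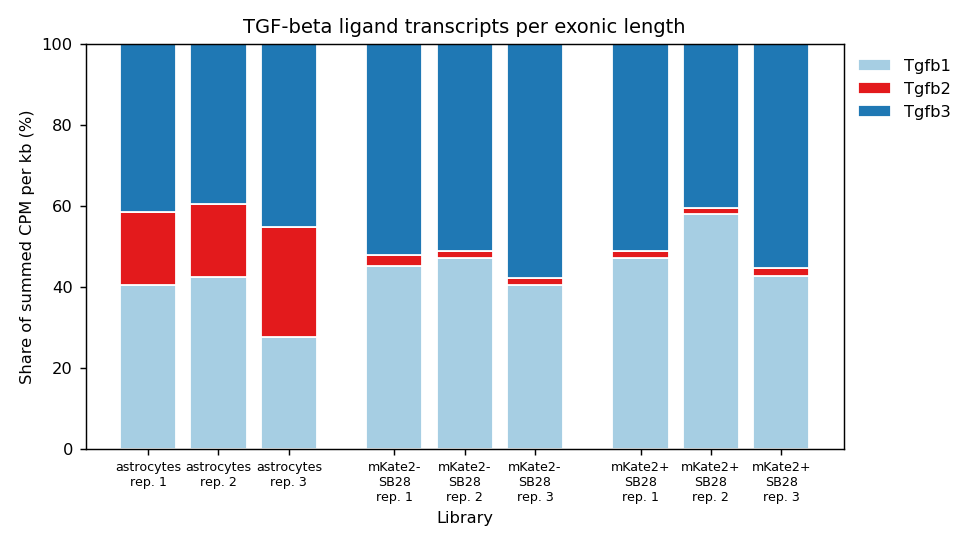
Share of Tgfb1, Tgfb2 and Tgfb3 in their summed CPM per kb of exonic length (vertical axis, percent) in each of the 9 libraries (horizontal axis). Tgfb2 takes 18.1% to 27.3% in astrocytes and 1.38% to 2.75% in SB28 libraries.

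Of the TGF-beta receptors, Tgfbr2 was called lower in both tumor populations and Tgfbr1 in neither direction. Tgfbr2, the type II receptor that binds the ligand first, was at 106, 147 and 255.5 CPM in astrocytes, 70.4, 87.3 and 79.1 CPM in mKate2- cells and 74.7, 75.9 and 71.0 CPM in mKate2+ cells. The astrocyte libraries were widely spread but all above the tumor libraries, which overlapped each other. In log2 terms the difference was -1.08 ± 0.28 in mKate2- cells (adjusted p = 0.0113) and -1.12 ± 0.29 in mKate2+ cells (adjusted p = 0.0116), and without astrocyte replicate 3, the highest, it was -0.68 and -0.73 and no longer called. The call was also lost in mKate2- cells with the replicate block and in mKate2+ cells with the gene length trend removed (-0.99).

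Tgfbr1, the type I receptor kinase that phosphorylates Smad2 and Smad3, was at 13.4, 20.3 and 30.2 CPM in astrocytes. It was at 39.5, 35.3 and 38.6 CPM in mKate2- cells and 39.8, 28.3 and 39.0 CPM in mKate2+ cells. All mKate2- libraries lay above all astrocyte libraries, as 33.8% of the genes tested did, whereas mKate2+ replicate 2 lay below astrocyte replicate 3. As log2 fold changes these were 0.85 ± 0.26 (adjusted p = 0.0208) and 0.82 ± 0.28 (adjusted p = 0.0363), past the P value threshold and under the fold threshold. Without astrocyte replicate 3 it was 1.17 and 1.13 and was called higher in both. The ratio of Tgfbr2 to Tgfbr1 per kb does not depend on library scaling. It was 6.31, 5.80 and 6.75 in astrocytes, 1.42, 1.97 and 1.64 in mKate2- cells and between 1.45 and 2.14 in mKate2+ cells, a ratio chosen after the levels were seen and given without a test.

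Bmp4, a ligand that drives neural precursors towards astrocytes, was at low levels throughout, of 2.62, 5.84 and 12.4 CPM in astrocytes, 0.85, 2.17 and 1.24 CPM in mKate2- cells and 1.58, 2.24 and 1.64 CPM in mKate2+ cells. The astrocyte libraries differed among themselves by more than the gap between the lowest of them and the tumor libraries, though no tumor library reached it. Its log2 fold change was -2.26 ± 0.60 in mKate2- cells (4.77-fold lower, adjusted p = 0.0116) and -1.84 ± 0.54 in mKate2+ cells (3.59-fold lower, adjusted p = 0.0198). Without astrocyte replicate 3 these were -1.55 and -1.16, and the second was not called without mKate2+ replicate 1 (-1.73) or replicate 3 (-1.76).

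Bmpr1a, the BMP type I receptor found in most tissues, was the one tested gene whose difference from astrocytes did not pass the P value threshold. It was at 145, 213 and 238 CPM in astrocytes, 157, 165 and 156 CPM in mKate2- cells and 154, 140 and 161 CPM in mKate2+ cells, and the 3 groups overlapped. Log2 fold changes were -0.30 (95% interval -0.68 to 0.09) in mKate2- cells and -0.31 (-0.73 to 0.10) in mKate2+ cells (adjusted p = 0.152 and 0.165). Its close relative Bmpr1b was barely detected, with 0, 1 and 24 counts in astrocytes, 0, 3 and 0 in mKate2- cells and 0, 0 and 3 in mKate2+ cells, and did not pass the filter. Astrocyte replicate 3 held most of them, at 0.68 CPM. Bmpr1b made up 0.305% of the summed CPM per kb of the pair in that library and at most 0.0580% in the others.

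The targets Id1 and Id3 were both lower in tumor cells. Id3 was at 511, 332 and 406 CPM in astrocytes, 69.1, 61.9 and 80.2 CPM in mKate2- cells and 67.2, 75.5 and 83.2 CPM in mKate2+ cells, with a wide gap between astrocytes and tumor cells. The log2 difference of Id3 was -2.56 ± 0.20 in mKate2- cells (5.88-fold lower, adjusted p = 3.34e-05) and -2.39 ± 0.20 in mKate2+ cells (5.25-fold lower, adjusted p = 6.26e-05). Id1 was at 218, 120 and 120 CPM in astrocytes, 57.6, 52.5 and 63.9 CPM in mKate2- cells and 61.0, 68.0 and 60.5 CPM in mKate2+ cells. Astrocyte replicate 1 was the highest, and the other two astrocyte libraries still lay above every tumor library. For Id1 the log2 fold change was -1.39 ± 0.25 (adjusted p = 0.00204) and -1.20 ± 0.26 (adjusted p = 0.00502), and the second was -0.85 and not called without astrocyte replicate 1. Per kb, Id3 exceeded Id1 in every astrocyte library, at ratios of 1.52, 1.79 and 2.19, and lay below it in every tumor library, at 0.71 to 0.89, a description chosen after the levels were seen.

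The order of the genes per kb of exonic length therefore changed near the top and the bottom. In astrocytes it ran from Id3 (232 ± 50.1 CPM per kb, SD, n = 3) and Id1 (132 ± 48.5) through Bmpr1a (31.3 ± 7.58), Tgfbr2 (20.7 ± 9.43), Tgfb3 (15.7 ± 4.14), Tgfb1 (13.3 ± 1.79) and Tgfb2 (8.04 ± 3.50) to Tgfbr1 (3.26 ± 1.29), Bmp4 (3.09 ± 2.22) and Bmpr1b (0.04 ± 0.06). There Tgfbr2 and Tgfb3, Tgfb3 and Tgfb1, and Tgfbr1 and Bmp4 were neighbours whose means differed by less than the larger of their SD. In mKate2- cells the order was Id1 (50.03 ± 4.92), Id3 (39.3 ± 5.15), Bmpr1a (25.1 ± 0.80), Tgfbr2 (9.64 ± 1.03), Tgfb3 (7.65 ± 0.88), Tgfb1 (6.28 ± 0.66), Tgfbr1 (5.79 ± 0.34), Bmp4 (0.63 ± 0.30), Tgfb2 (0.29 ± 0.06) and Bmpr1b, and only Tgfb1 and Tgfbr1 were neighbours within the larger SD. In mKate2+ cells Tgfb1 (7.44 ± 1.43) and Tgfb3 (7.37 ± 0.95) changed places, by far less than their SD, and the rest kept the order of mKate2- cells.

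**Figure D3:**
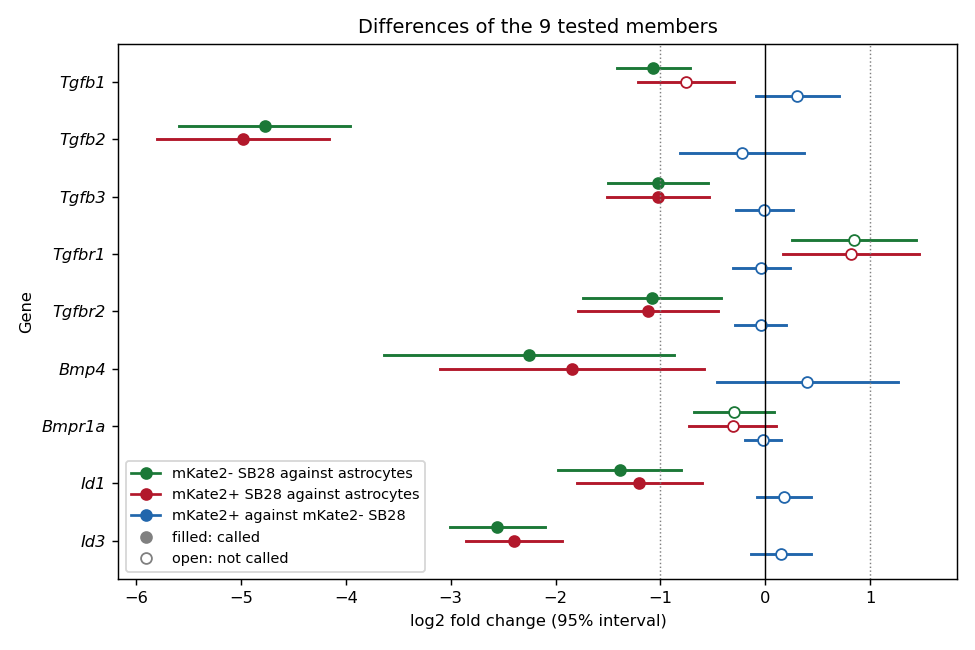
Log2 fold change of the 9 tested genes (horizontal axis) with its 95% interval, for mKate2- SB28 cells against astrocytes, mKate2+ SB28 cells against astrocytes and mKate2+ against mKate2- SB28 cells. Filled points were called and dotted lines mark a log2 fold change of -1 and 1. Each interval of the comparison between tumor cells includes 0.

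Whether holding astrocyte mitochondria goes with a change in these genes was asked by comparing mKate2+ with mKate2- SB28 cells. None of the 9 tested genes had an adjusted P value below 0.05 (edgeR), as held for all 11854 genes tested (0% called, smallest adjusted p = 0.923). Also, 0 of the 9 had an unadjusted P value below 0.05, where 2.03% of all genes did, and DESeq2 called 0 as well. The study's own rule for higher genes asks for a fold change over 1.5, a count over 50 and P under 0.05 with no adjustment. The count was taken here as the mean normalized count, and the rule was also applied to lower genes. By it, 0 of the 9 were higher or lower, where 0.194% of all genes were higher and 0.169% lower. For none of the 10 genes did the CPM of the 3 mKate2+ libraries lie wholly above or below those of the 3 mKate2- libraries, where 2.16% of genes tested lay above and 6.67% below.

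The intervals show what these libraries could not resolve. For Bmpr1a the log2 fold change was -0.02 (95% interval -0.19 to 0.15), for Tgfbr2 -0.04 (-0.28 to 0.20), for Tgfb3 -0.01 (-0.27 to 0.26) and for Tgfbr1 -0.04 (-0.31 to 0.23), so changes beyond about these sizes lay outside the intervals. For Id1 it was 0.18 (-0.08 to 0.44) and for Id3 0.15 (-0.14 to 0.44). Tgfb1 was 0.31 higher (-0.09 to 0.70, adjusted p = 0.923), with mKate2+ replicate 2 above every mKate2- library and the other two within or beside their range. The low-count ligands left more room, with -0.22 (-0.81 to 0.37) for Tgfb2 and 0.40 (-0.46 to 1.27) for Bmp4. Without mKate2- replicate 2, its highest library in that population, Bmp4 was 0.86 higher and met the study's rule.

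The rest of the pathway was taken from 10 lists of 99 further genes, of which 7 stand in more than 1 list. Of the 73 that passed the filter, 32 were called lower and 4 higher in mKate2- cells than in astrocytes, with a median log2 fold change of -0.65, where 22.4% of all genes were called lower and 11.5% higher. In mKate2+ cells 31 were called lower and 3 higher, with a median of -0.56, where 22.8% of all genes were called lower and 12.2% higher. The counts of each list below are to be read against these shares. Of the 73, 11 in mKate2- and 12 in mKate2+ cells had fewer than 2 tumor libraries above 1 CPM and so passed only through the astrocytes. All of these were called lower, as their entry set, and they give no support to the counts or medians. They were Acvrl1, Atoh8, Bmp2, Bmp7, Chrdl1, Fst, Gdf6, Lrrc32, Ltbp2, Smad9 and Sostdc1, with Inha in mKate2+ cells only. All 9 tested genes of the 10 had at least 2 libraries of either tumor population above 1 CPM. The 4 called higher in mKate2- cells were Inhba, Acvr2b, Msx2 and Snai1, and all but Acvr2b (0.95) were also called in mKate2+ cells. Acvr2b lay at the threshold, not called in mKate2- cells with upper-quartile normalization (0.97) or the stricter filter (0.98), and called in mKate2+ cells with no filter (1.01) or without astrocyte replicate 1. Msx2 was not called without any single mKate2- library or without astrocyte replicate 2 (0.93 to 1.34 over these). Without astrocyte replicate 3, 7 genes were called higher in mKate2- cells and 5 in mKate2+ cells.

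**Figure D4:**
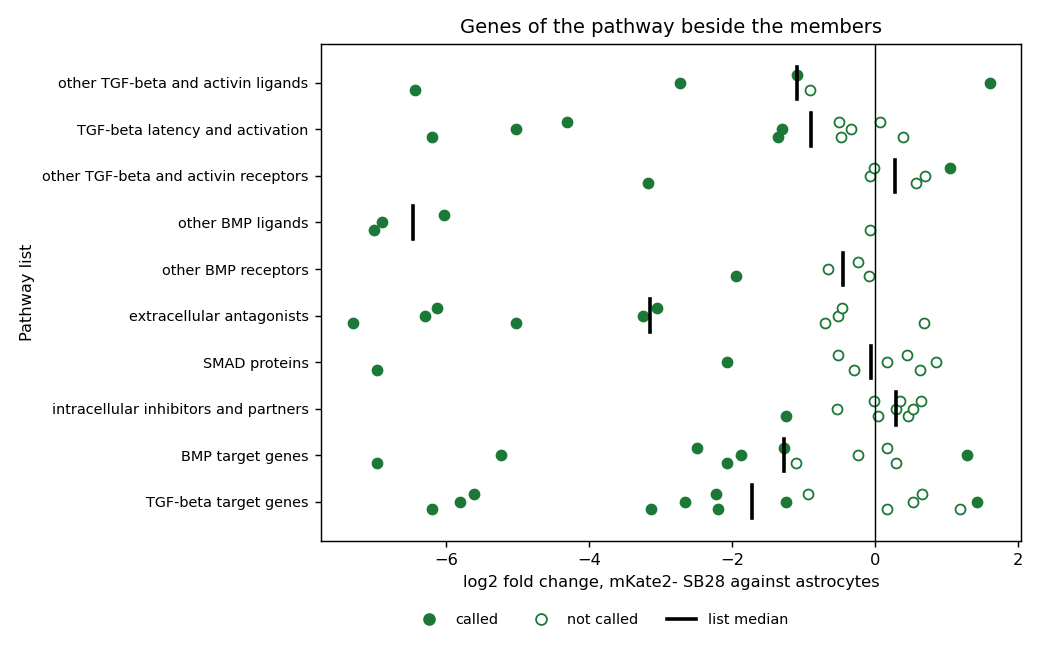
Log2 fold change of mKate2- SB28 cells against astrocytes (horizontal axis) for each tested gene of the 10 pathway lists (vertical axis). Filled points were called, open points were not and bars mark the list median. The medians run from -6.46 for the other BMP ligands to 0.30 for the intracellular inhibitors and partners, the first over 4 genes of which 3 passed the filter only through the astrocytes, and points are shifted vertically only to separate them.

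Of 12 other TGF-beta and activin ligands, 5 passed the filter, and in both tumor populations Inhbb, Inha and Gdf15 were called lower and Inhba higher. Inhba, the activin A subunit gene, was at 5.15, 11.9 and 11.95 CPM in astrocytes, 29.7, 31.1 and 26.3 CPM in mKate2- cells and 25.2, 30.1 and 26.8 CPM in mKate2+ cells. On the log2 scale it was higher by 1.61 ± 0.29 (adjusted p = 0.00197) and 1.58 ± 0.31 (adjusted p = 0.00334). Inhbb, the activin B subunit gene, was at 46.8, 55.2 and 22.1 CPM in astrocytes, 4.45, 9.06 and 4.96 CPM in mKate2- cells and 7.63, 10.4 and 4.71 CPM in mKate2+ cells. The groups of astrocytes and tumor cells did not overlap for either gene, and the subunits were ordered in opposite ways. Per kb, the ratio of Inhba to Inhbb was 0.07, 0.14 and 0.36 in astrocytes and 1.94 to 4.44 in the tumor libraries.

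Gdf15, a stress-induced cytokine of the family, was at 462, 155 and 95.3 CPM in astrocytes and at 0.61 to 5.90 CPM in tumor libraries. Its log2 fold change was -6.43 ± 0.92 in mKate2- cells (86.4-fold lower, adjusted p = 0.000594) and -7.55 ± 0.78 in mKate2+ cells (adjusted p = 0.000169). The size rested in part on single libraries, with -5.49 and -6.61 without astrocyte replicate 1 and, in mKate2- cells, -7.61 without mKate2- replicate 3. Inha, the inhibin alpha subunit gene, was low everywhere (at most 3.33 CPM), and its call was lost without astrocyte replicate 3 and without 2 of the 3 libraries of either tumor population in turn.

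Of 13 other BMP ligands, 4 passed the filter, and Bmp2, Bmp7 and Gdf6, all of which passed only through the astrocytes, were called lower in both tumor populations. Gdf6, a ligand of the BMP class, was at 65.1, 84.9 and 26.0 CPM in astrocytes and 0.18 to 0.87 CPM in tumor libraries (log2 fold change -6.89 ± 0.61 in mKate2- and -7.17 ± 0.62 in mKate2+ cells). Bmp2, which shares its receptors with Bmp4, was at 85.1, 63.2 and 12.5 CPM in astrocytes and 0.20 to 1.47 CPM in tumor libraries (-6.02 ± 0.84 and -7.08 ± 0.84). For both, astrocyte replicate 3 was the lowest of the astrocytes, while for Bmp7 it was the highest, at 16.2 CPM against 3.84 and 2.69 CPM, with 0 to 3 counts in each tumor library. With mKate2- replicate 3 left out, Gdf6 was at -7.56 and Bmp2 at -6.72 on the log2 scale in mKate2- cells. The fourth, Bmp6, was at 1.88, 2.48 and 10.1 CPM in astrocytes and 2.75 to 5.96 CPM in tumor cells and was not called, except as higher in mKate2- cells without astrocyte replicate 3 (1.05). It overlaps Txndc5, at 281 to 419 CPM on the opposite strand, so its reads could in part belong to that gene.

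Of 15 extracellular antagonists, which bind ligands and keep them from their receptors, 10 passed the filter, and Grem1, Chrdl1, Nbl1, Fst, Sostdc1 and Fstl1 were called lower in both tumor populations and none higher. Nbl1, a BMP antagonist, was at 113, 89.1 and 170 CPM in astrocytes and 1.07 to 2.25 CPM in tumor libraries, a log2 fold change of -6.12 ± 0.35 in mKate2- cells (adjusted p = 1.16e-05) and -6.15 ± 0.31 in mKate2+ cells (adjusted p = 9.69e-06). Fst, the activin-binding follistatin, was at 11.5, 21.8 and 27.2 CPM in astrocytes and 0.06 to 0.64 CPM in tumor libraries, with a log2 fold change of -6.29 in mKate2- cells that was -8.19 without mKate2- replicate 3. Fstl1, a follistatin-like protein, was at 1009, 971 and 934 CPM in astrocytes and 99.9 to 128 CPM in tumor libraries, and Grem1, a BMP antagonist, at 79.3, 141 and 119 CPM and 10.9 to 17.1 CPM. Chrdl1, a chordin-like BMP antagonist, was at 4.99, 18.0 and 177 CPM in astrocytes, so that its log2 fold change of -7.30 in mKate2- cells was -4.78 without astrocyte replicate 3.

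**Figure D5:**
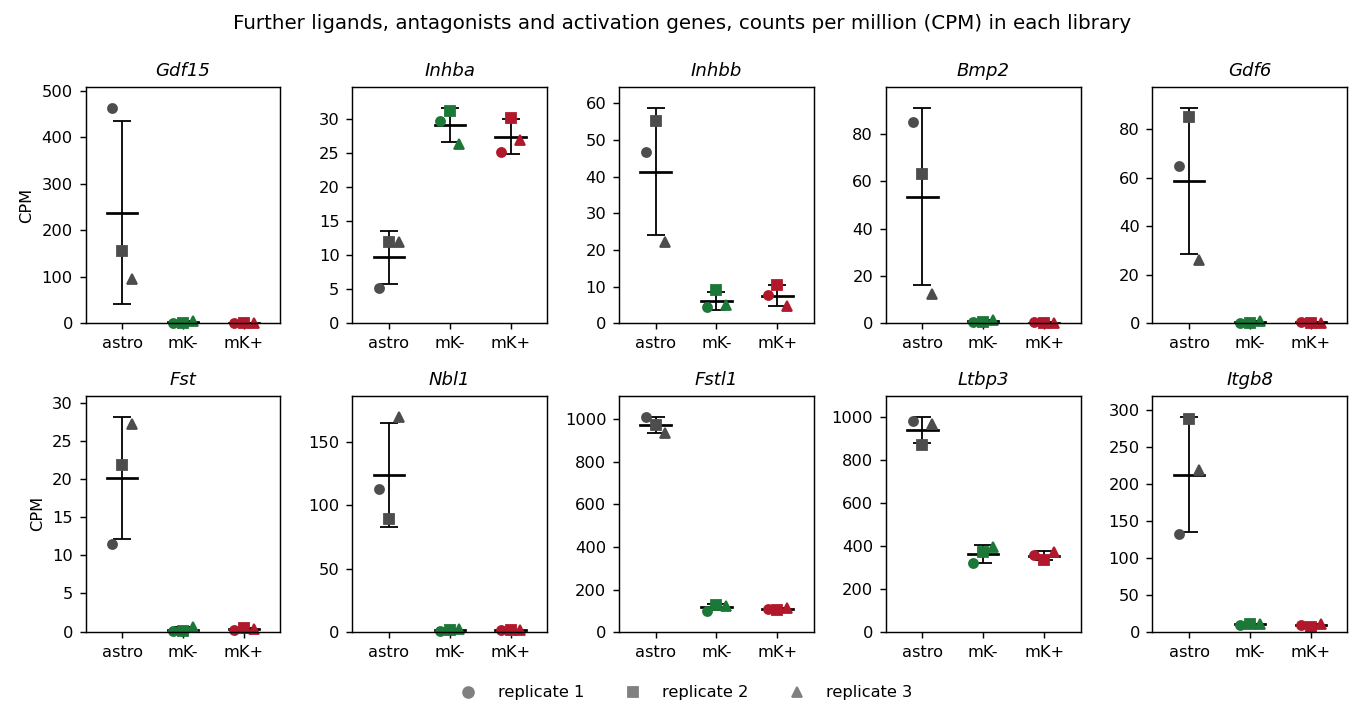
Level in CPM (vertical axis, with its own scale per gene) of 10 further genes of the pathway in astrocytes (astro), mKate2- SB28 cells (mK-) and mKate2+ SB28 cells (mK+). Points are libraries, the long bar is the mean of 3 and the error bar its SD. Inhba is the one gene shown with its tumor libraries above its astrocyte libraries.

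Of 12 genes for keeping TGF-beta latent or activating it, 10 passed the filter, and Lrrc32, Ltbp2, Ltbp3, Itgb8 and Thbs1 were called lower in both tumor populations and none higher. Itgb8, the integrin subunit that frees TGF-beta from its latent complex on brain cells, was at 133, 288 and 219 CPM in astrocytes and 6.59 to 11.3 CPM in tumor libraries. Its log2 fold change was -4.31 ± 0.28 in mKate2- cells (adjusted p = 1.64e-05) and -4.48 ± 0.33 in mKate2+ cells (adjusted p = 3.79e-05). Ltbp3, which carries latent TGF-beta to the matrix, was at 980, 867 and 965 CPM in astrocytes and 319 to 397 CPM in tumor libraries, with -1.36 ± 0.13 and -1.33 ± 0.12. Lrrc32, which anchors latent TGF-beta at the cell surface, was at 40.3, 15.2 and 13.7 CPM in astrocytes and below 1 CPM in every tumor library, with log2 fold changes of -5.02 and -5.54 that were -4.33 and -4.86 without astrocyte replicate 1. Thbs1, an activator of latent TGF-beta, lost its call in either comparison without any single tumor library or without astrocyte replicate 3 (-0.78 and -0.85), and in mKate2+ cells also without astrocyte replicate 2.

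Of 7 other TGF-beta and activin receptors, 6 passed the filter, and Acvrl1, a type I receptor known from endothelium, was called lower (9.53, 8.22 and 4.90 CPM in astrocytes, 0.29 to 0.92 CPM in tumor cells). Acvr2b, an activin type II receptor, was at 2.53 to 2.86 CPM in astrocytes and 4.65 to 5.66 CPM in tumor cells. Tgfbr3, the betaglycan co-receptor that presents Tgfb2, was not called at 0.70 ± 0.68 in mKate2- cells, with 8.79, 14.4 and 74.1 CPM in astrocytes and 37.5 to 56.8 CPM in tumor cells, but was called higher at 2.15 without astrocyte replicate 3. Of the 4 other BMP receptors, the co-receptor Rgma was called lower, at 52.9, 53.7 and 72.3 CPM in astrocytes and 12.8 to 17.5 CPM in tumor cells, and Bmpr2 was not called, at -0.09 ± 0.19.

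All 8 SMAD genes passed the filter, and 2 were called lower in both tumor populations. Smad6, the inhibitory SMAD of the BMP branch and itself a BMP target, was at 29.8, 22.3 and 31.1 CPM in astrocytes and 5.80 to 7.33 CPM in tumor libraries, with a log2 fold change of -2.07 ± 0.17 in mKate2- cells (adjusted p = 5.02e-05) and -2.04 ± 0.21 in mKate2+ cells (adjusted p = 0.000164). Smad9, a BMP-regulated SMAD, had 40, 88 and 323 counts in the astrocyte libraries and at most 3 in any tumor library. The other signal-carrying SMADs, Smad1 (0.86), Smad2 (0.45), Smad3 (-0.51), Smad4 (0.63) and Smad5 (-0.29), passed the P value threshold in mKate2- cells but stayed under the fold threshold. In mKate2+ cells Smad3 passed neither threshold (-0.41, edgeR, adjusted p = 0.0757). Smad1, Smad2, Smad4 and Smad5 again passed only the P value threshold there. The inhibitory Smad7 was at 45.6 to 46.9 CPM in astrocytes and 46.0 to 54.6 CPM in tumor cells, a log2 fold change of 0.17 ± 0.11 in mKate2- cells (adjusted p = 0.206). Of 9 intracellular inhibitors and partners, Pmepa1, a TGF-beta-induced inhibitor, was called lower in both (-1.24 ± 0.16 and -1.09 ± 0.21), the second not without astrocyte replicate 1 or mKate2+ replicate 3.

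Among the 12 BMP target genes, 11 passed the filter. In mKate2- cells Id2, Id4, Smad6, Smad9, Atoh8 and Hey1 were called lower and Msx2 higher, and in mKate2+ cells the same apart from Hey1 (-1.11 ± 0.46, adjusted p = 0.071, and called without astrocyte replicate 2 at -1.42). Id2 was at 59.6, 33.6 and 57.3 CPM in astrocytes and 12.7 to 14.9 CPM in tumor libraries, and Id4 at 8.75, 7.89 and 43.7 CPM and 2.08 to 3.65 CPM. The 4 Id genes were thus called lower in both tumor populations, Id4 at -2.49 and -2.78, and at -1.23 and -1.54 without astrocyte replicate 3. Atoh8, a bHLH factor induced by BMP in other cells, was at 56.0, 25.5 and 48.4 CPM in astrocytes and 0.64 to 1.88 CPM in tumor libraries (-5.23 ± 0.47 and -5.69 ± 0.37). Hey1 lost its call in mKate2- cells without astrocyte replicate 3 (-0.59) or mKate2- replicate 1 or 2.

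Of 15 TGF-beta target genes, 14 passed the filter, and in both tumor populations 8 were called lower and 1 higher. Those lower were Fn1, Pmepa1, Ccn2, Tagln, Tgfbi, Ltbp2, Cdkn1a and Acta2. Tagln, a contractile actin-binding protein, was at 29.5, 38.4 and 65.6 CPM in astrocytes, 0.51, 1.00 and 1.14 CPM in mKate2- cells and 1.80, 3.31 and 1.32 CPM in mKate2+ cells. Acta2, smooth muscle actin, was at 60.1, 86.2 and 131 CPM in astrocytes and 7.54 to 17.8 CPM in tumor libraries, and Ccn2, a matricellular protein, at 99.1, 133 and 665 CPM and 3.86 to 6.77 CPM. Ccn2 changed by -5.80 and -5.74 on the log2 scale, and by -4.46 and -4.41 without astrocyte replicate 3. The one called higher was Snai1, a transcription factor of epithelial-mesenchymal transition, at 13.0, 12.3 and 12.4 CPM in astrocytes and 27.3 to 36.5 CPM in tumor libraries (1.43 ± 0.14 and 1.49 ± 0.17, adjusted p = 8.77e-05 and 0.000283). These genes are also driven by other signals, and each list's name says only how its genes were collected.

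Between mKate2+ and mKate2- cells, 62 of the 99 further genes passed the filter. None had an adjusted P value below 0.05 by edgeR or DESeq2, and 2 had an unadjusted one, Tagln and Gdf11, where 2.03% of all genes did. Tagln met the study's rule, at 1.34 ± 0.45 higher on the log2 scale (edgeR, adjusted p = 0.923), as 0.194% of all genes did, and every mKate2+ library was above every mKate2- library, as for 2.16% of all genes. It did not meet the rule without mKate2+ replicate 2 (0.81), its highest library, mKate2+ replicate 1 (1.47) or mKate2- replicate 1 (1.08), and it overlaps Pcsk7, at 17.7 to 23.3 CPM on the opposite strand. Gdf11, a ligand close to myostatin, was 0.31 ± 0.11 higher (edgeR, adjusted p = 0.923).

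The genes whose profile over the 9 libraries was most like that of a pathway gene were found for Id1 and Tgfb2, as the smallest root mean square difference of centred log2(CPM + 0.5) among 13449 genes. The added 0.5 narrows the differences of genes at low levels. For Id1 these were B3gnt8 (0.10), Fam173a (0.12) and Pcbp3 (0.13). For Tgfb2, the gene with the widest range of group means (4.55 on that scale), they were Gem (0.16), Ccdc3 (0.20) and Gad2 (0.21). Gem stood at 58.2 CPM in astrocytes and 2.23 and 1.85 CPM in mKate2- and mKate2+ cells. This measure describes likeness in these libraries only.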

How the data were processed

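The authors trimmed reads with Trimmomatic 0.36, aligned them to GRCm38 with STAR 2.5.2b and deposited raw counts per gene from featureCounts of Subread 1.5.2, per the labels and submitters' processing notes. The strand setting is not given in the sources used here, so overlapping genes on opposite strands cannot be told apart. Names came from GENCODE M21, which matched 49056 of 49315 gene IDs. The mKate2 transgene was not analysed here.

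Each comparison was fitted to its 6 libraries with edgeR 4.0.16 (R 4.3.3; TMM, quasi-likelihood, Benjamini-Hochberg over all genes tested), for genes above 1 CPM in at least 2 libraries. Alternatives were DESeq2 1.42.0, other filters, a fit to all 9 libraries, removal of a gene length trend, a replicate block and leaving out each library. The fits were tested on simulated data with 200 genes changed by 1.5 (log2). For mKate2- cells against astrocytes, edgeR recovered 182 of 200 among 13047 genes, with 9 false calls. For mKate2+ against mKate2- cells it recovered 199 of 200 among 11753, with 13 false calls. Recovery was judged by the adjusted P value alone. The changed genes were drawn from those with higher counts, and all others were left unchanged. In the data, 63.1% of genes passed the adjusted P value threshold for mKate2- cells against astrocytes. Smaller changes, such as those of the tested genes between tumor cells, were not simulated.

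The genes and lists were chosen with earlier results of these data known. Of each list, the text names up to 4 called genes with the largest changes, and all SMAD genes. Other names (Thbs1, Grem1, Fstl1, Bmp6, Bmpr2, Tgfbr3, Hey1, Msx2, Id2, Snai1, Fn1, Tgfbi, Cdkn1a and Gdf11) were added after their values were seen. P values set a difference between groups against the spread between these libraries, which the main tests take as unpaired.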

Additional observations from a re-analysis of the deposited data

How the results depend on the processing

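Against astrocytes, for the 9 tested genes and the further genes named by rule, 1014 values over the alternatives kept their direction and side of the thresholds, 29 lost the call, 4 gained one and 0 turned direction. Other genes of the lists could turn, as Bmp6 did without astrocyte replicate 3. Leaving out each library in turn, the number of the 10 genes called higher was 0 to 1 in either tumor population (Tgfbr1, without astrocyte replicate 3), and the number of further pathway genes called higher was 3 to 7 in mKate2- and 3 to 5 in mKate2+ cells. Between mKate2+ and mKate2- cells, values near 0 turned sign. Tgfb3 was 0.0014 with no filter on low counts and 0.0063 in the fit to all 9 libraries, and with the gene length trend removed Tgfbr1 was 0.0040, Tgfbr2 0.036 and Bmpr1a 0.024. Over single libraries left out, Tgfb3 ran from -0.083 to 0.069, Tgfbr1 from -0.10 to 0.065, Tgfbr2 from -0.11 to 0.039 and Bmpr1a from -0.062 to 0.0070. By the study's rule, 0 to 1 of the 10 genes (Bmp4, without mKate2- replicate 2) and 0 to 2 further pathway genes (Tagln and Acta2) were higher, and 0 to 1 lower (Gdf15), with 1 lower when low counts were not filtered. The share of Bmpr1b in its pair differed by -0.142 to 0.0103 percentage points in mKate2- and -0.141 to 0.0117 in mKate2+ cells against astrocytes, and by -0.0180 to 0.0193 between tumor cells. The cause of these moves was not tested. With the replicate number as a block, 5 of the 9 tested genes were called lower in either tumor population (Tgfb3 fell under the fold threshold in both, and Tgfbr2 in mKate2- cells). Whether equal numbers mark the same co-culture is not given, and the main fits treat the libraries as unpaired. Same-numbered deviations correlated at 0.080, 0.033 and 0.027 (mKate2- and astrocytes) and at -0.19, 0.024 and 0.25 (mKate2+ and astrocytes). Between tumor cells they correlated at -0.053, 0.11 and 0.33. In each comparison, 1 of 3 numbers correlated best with its own. With so few libraries, these correlations cannot decide whether the numbers pair the libraries, so a pairing that the main fits ignore remains possible. Tgfb2 and Bmp4, at 23 to 88 counts in a tumor library, are the least precise of the tested genes.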
